A study of Anser cygnoides with 9 samples.

Results

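VEGFA, ANGPTL4 and BTC are 3 genes for secreted proteins, and they were read as named rows of a table of 1371 genes from cultured goose ovarian granulosa cells. All 3 had a row and all 3 passed the filter on low values, as did 832 of the 1371 genes; BTC passed with the minimum of 3 libraries at 1 TPM or more. TPM expresses a gene's transcripts, per unit of length, as parts of the whole library.

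The cells were granulosa cells of Sichuan white geese (Anser cygnoides) aged 40 weeks, from small and large yellow follicles, and 3 libraries were made for each of 3 groups. The agonist group received alarelin acetate, a peptide analogue that activates the receptor of gonadotropin-releasing hormone (GnRH). The antagonist group received cetrorelix acetate, which blocks that receptor, and the blank group, given neither, was the control. The labels state no dose or exposure time, so each analogue's values are shown without matching of doses, which may be unequal. Since the labels do not tie libraries to birds or culture wells, a p-value here speaks for the spread between these libraries alone, and that spread may be technical.

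VEGFA encodes vascular endothelial growth factor A, which binds receptor tyrosine kinases on endothelial cells and drives vessel growth; granulosa cells make it, while the granulosa layer itself lies inside the vessels of the theca. ANGPTL4 encodes angiopoietin-like 4, a secreted inhibitor of lipoprotein lipase, the enzyme that frees fatty acids from circulating lipoproteins. BTC encodes betacellulin, an epidermal growth factor (EGF) family ligand that is made as a membrane protein, shed by metalloproteases and bound by EGF receptors. In mammalian follicles EGF family ligands relay the luteinizing hormone signal from granulosa to cumulus cells. In the RefSeq annotation of the Taihu goose assembly the 3 genes overlap no other annotated gene, and VEGFA has 11 annotated transcripts, BTC 2 and ANGPTL4 1. The table gives 1 value for each gene, so transcripts of a gene cannot be told apart, and the annotation behind the table may differ.

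The listed TPM summed to 28760 to 32645 per library, or 2.88% to 3.26% of a full set, and the number of reads is unknown. All blank libraries, at 31764 to 32645, had higher sums than all analogue libraries, at 28760 to 31032. The cause of this was not tested. The worth of a single fragment, read from steps among low values and set at 1.00 in blank replicate 3, was 1.03 to 1.07 in the agonist libraries, 1.11 to 1.18 in the antagonist libraries and 1.21 and 1.09 in blank replicates 1 and 2. A principal component analysis put 45.1% of the variance on its first axis, where blank replicate 1 stood apart from its group at 2.58, against -3.10 and -3.66 for the other blank libraries and 4.14 to 6.90 for the antagonist libraries. The libraries came from 3 flow cells that did not hold the groups evenly.

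The 3 genes lay far apart in level. ANGPTL4 was among the most abundant transcripts listed, at a mean of 195 TPM over the 9 libraries and place 33 of 1371. VEGFA was at 3.22 TPM and place 548, and BTC at 0.887 TPM and place 824. Within a library ANGPTL4 was at 181 to 301 times the TPM of BTC and VEGFA at 2.48 to 6.01 times.

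VEGFA had 2.07, 2.51 and 2.67 TPM in the agonist libraries, 3.92, 4.67 and 4.48 TPM in the antagonist libraries and 3.69, 2.64 and 2.34 TPM in the blank libraries. All antagonist libraries lay above all others, by a small margin over blank replicate 1, which was the highest of its group. Such separation was common: 44.8% of the 832 tested genes had agonist libraries wholly below antagonist ones. Antagonist libraries lay wholly above blank ones for 26.2%, and the share with both was not computed. The means were 2.42 ± 0.31 TPM with the agonist, 4.36 ± 0.39 TPM with the antagonist and 2.89 ± 0.71 TPM in blank cells (SD, n = 3 each). The agonist and blank libraries overlapped.

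ANGPTL4 had 156, 192 and 173 TPM in the agonist libraries, 214, 234 and 232 TPM in the antagonist libraries and 172, 196 and 181 TPM in the blank libraries. The antagonist libraries again lay above the other 6, and the agonist and blank libraries overlapped. Among all tested genes, antagonist libraries lay wholly above agonist ones for 44.8% and wholly above blank ones for 26.2%. The means were 174 ± 18 TPM with the agonist, 227 ± 11 TPM with the antagonist and 183 ± 12 TPM in blank cells (SD, n = 3 each). Blank replicate 1, high for VEGFA, was the lowest blank library for ANGPTL4.

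BTC had 0.658, 1.01 and 0.696 TPM in the agonist libraries, 1.19, 0.778 and 1.24 TPM in the antagonist libraries and 0.865, 0.720 and 0.826 TPM in the blank libraries. The groups overlapped in every pair, since antagonist replicate 2 lay among the agonist and blank values and agonist replicate 2 above all blank values. The means were 0.790 ± 0.20, 1.07 ± 0.25 and 0.804 ± 0.075 TPM for agonist, antagonist and blank (SD, n = 3 each). At this level, with an unknown number of reads, counting error cannot be given.

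**Figure D1:**
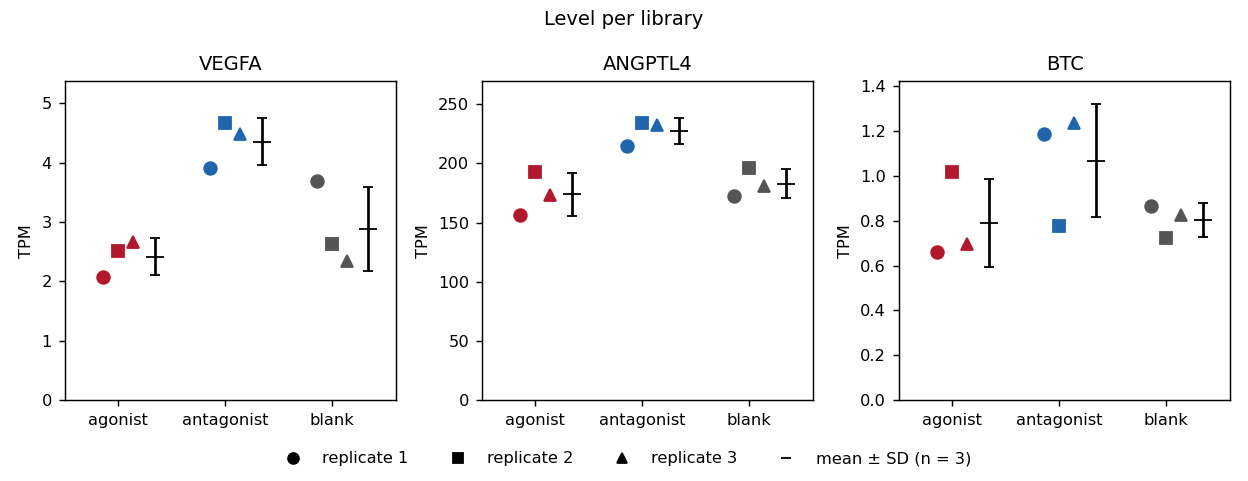
TPM (vertical axis, from 0) of VEGFA, ANGPTL4 and BTC in each library, by group; marker shapes are replicate numbers and bars are the mean ± SD (n = 3). The 3 antagonist libraries lie above the other 6 for VEGFA (3.92 to 4.67 TPM) and ANGPTL4 (214 to 234 TPM), while the groups overlap for BTC. Of all 832 tested genes, 44.8% have antagonist libraries wholly above agonist ones and 26.2% wholly above blank ones.

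Agonist against antagonist set the analogues against each other; the state of the receptor was not measured. Agonist-treated cells had less VEGFA and ANGPTL4 transcript than antagonist-treated cells, and BTC did not pass the test. VEGFA's mean TPM with the agonist was 0.555 times that with the antagonist, ANGPTL4's 0.766 times and BTC's 0.740 times. On the scale of log2(TPM + 1), VEGFA was 0.65 lower with the agonist than with the antagonist (95% interval -0.95 to -0.35; limma, adjusted p = 0.0130). ANGPTL4 was 0.39 lower (95% interval -0.60 to -0.17; limma, adjusted p = 0.0202). BTC differed by -0.21, 95% interval -0.47 to 0.056 (limma, adjusted p = 0.199). The log2(TPM + 1) scale understates the change of genes as low as BTC and VEGFA, and hardly that of ANGPTL4. With a pseudocount of 0.1 the log2 fold changes were -0.83 for VEGFA, -0.39 for ANGPTL4 and -0.39 for BTC.

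These calls stand against a broad background. In the same comparison 213 of 832 genes passed an adjusted p of 0.05, which is 25.6%, and 199 of them (23.9%) were lower with the agonist. The groups did not overlap, with the agonist lower, for 44.8% of all genes, a pattern that VEGFA and ANGPTL4 shared. Over all genes the fold changes had a median of -0.21 (log2), so VEGFA lay 0.44 below it, ANGPTL4 0.18 below it and BTC 0.0018 above it. VEGFA had the 39th lowest fold change of the 832, ANGPTL4 the 182nd lowest and BTC the 420th. That balance differed with the scaling. On TPM as deposited 14 genes were called higher and 199 lower. The counts were 35 and 66 after upper quartile scaling, 25 and 27 after quantile normalization and 52 and 56 after median of ratios scaling. These scalings moved the all-gene median to -0.043, 0.015 and 0.0049. Each was computed from the tested genes themselves and brings the libraries to a like level, so a median near 0 was largely built in. The cause of the one-sided balance on TPM as deposited was not tested.

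VEGFA's call was lost with quantile normalization (log2 fold change -0.34; limma, adjusted p = 0.0661), and its log2 fold change was -0.49 with upper quartile and -0.44 with median of ratios scaling, where it passed. ANGPTL4's call was lost with upper quartile and median of ratios scaling, at log2 fold changes of -0.17 and -0.11, and held with quantile normalization, at -0.41. With fragment worth as a covariate neither passed (limma, adjusted p = 0.110 for both), at log2 fold changes of -0.45 for VEGFA and -0.42 for ANGPTL4. Fragment worth was 1.03 to 1.07 in the agonist and 1.11 to 1.18 in the antagonist libraries. These do not overlap, while the blank libraries, at 1.00 to 1.21, spanned both ranges. The fit sets the worth term from the spread within groups, which was widest in the blank libraries. Whether worth or treatment lay behind the lost calls was not tested. Without agonist replicate 1 neither passed, at -0.58 for VEGFA and -0.31 for ANGPTL4 (limma, adjusted p = 0.0638 and 0.0863). VEGFA was also lost without antagonist replicate 3 (-0.63), and ANGPTL4 without antagonist replicate 1 (-0.43), 2 (-0.36) or 3 (-0.37).

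Both analogues were present on a pair of flow cells. In the one with agonist replicate 1 and antagonist replicate 2 the log2 difference was -0.89 for VEGFA, -0.58 for ANGPTL4 and -0.10 for BTC, beside a median of -0.23 over all genes. In the one with agonist replicate 2 and antagonist replicates 1 and 3 it was -0.56, -0.21 and -0.13, in the same order of genes, beside a median of -0.15. With a flow cell term VEGFA and ANGPTL4 passed, at -0.60 and -0.40 (limma, adjusted p = 0.0389 and 0.0411).

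**Figure D2:**
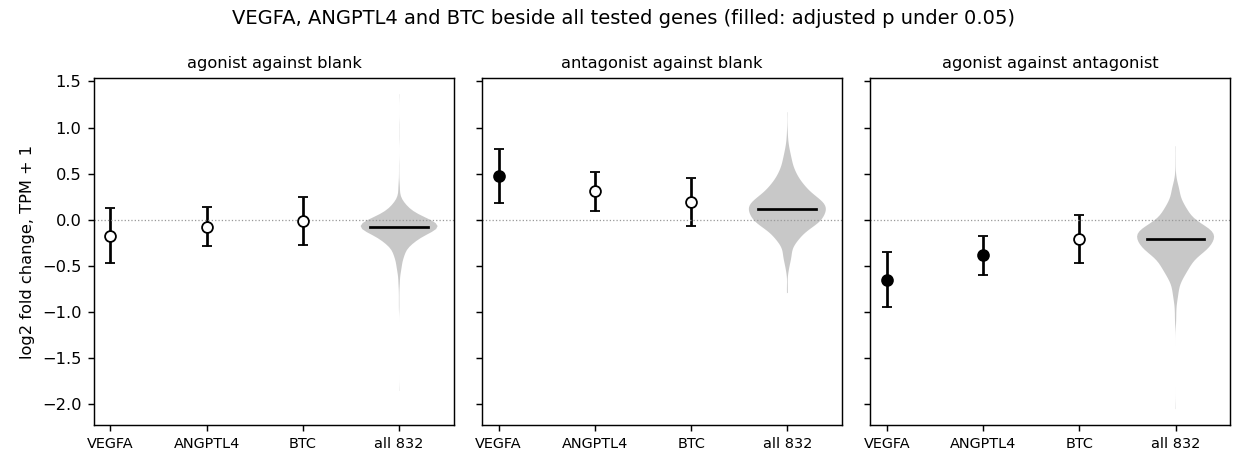
Log2 fold change on the TPM + 1 scale (vertical axis) of the 3 genes with 95% intervals, in each comparison, beside the distribution of all 832 tested genes (grey, with its median as a bar); filled points have an adjusted p under 0.05. VEGFA and ANGPTL4 are filled for agonist against antagonist, VEGFA alone for antagonist against blank, and none for agonist against blank.

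In antagonist against blank, VEGFA was higher with the antagonist, at 1.51 times the mean TPM of blank cells, and passed by a small margin (log2 fold change 0.48, 95% interval 0.18 to 0.77; limma, adjusted p = 0.0490). ANGPTL4 was at 1.24 times the blank mean and just missed the threshold (log2 fold change 0.31, 95% interval 0.099 to 0.52; limma, adjusted p = 0.0606). BTC was at 1.33 times the blank mean (log2 fold change 0.19, 95% interval -0.072 to 0.45; limma, adjusted p = 0.297). Of all 832 genes 92 passed, or 11.1%, and 85 of these (10.2%) were higher with the antagonist; 26.2% of all genes had antagonist libraries wholly above the blank ones, as VEGFA and ANGPTL4 did. Across all genes the median log2 fold change was 0.12, leaving VEGFA 0.36, ANGPTL4 0.19 and BTC 0.074 above it. Against 85 genes called higher and 7 lower here, upper quartile scaling gave 62 and 14, quantile normalization 30 and 11 and median of ratios scaling 42 and 24.

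The VEGFA call in that comparison was kept in 3 of 14 alternatives and in 1 of 9 fits that left out 1 library. Without blank replicate 1 the log2 fold change was 0.62 (limma, adjusted p = 0.00487), and without any other single library the adjusted p in limma was 0.0557 to 0.178, with the lowest log2 fold change, 0.37, without blank replicate 3. The call was lost with a replicate block (limma, adjusted p = 0.0873), with a flow cell term (log2 fold change 0.40; limma, adjusted p = 0.207) and under all 3 scalings, the smallest value being 0.25 with quantile normalization. On the flow cell that held both groups, antagonist replicates 1 and 3 exceeded blank replicate 1 by 0.15 for VEGFA, 0.37 for ANGPTL4 and 0.25 for BTC on the log2 scale, beside a median of 0.039 over all genes. ANGPTL4 passed in 3 of 15 alternatives and in 1 of 9 fits that left out 1 library, and its log2 fold change ranged from 0.15 with median of ratios scaling to 0.39 with quantile normalization.

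In agonist against blank, at an adjusted p of 0.05 limma called 0 genes (0.0%), and 102, or 12.3%, had an unadjusted p under 0.05, with VEGFA, ANGPTL4 and BTC not among them. The agonist and blank libraries overlapped for all 3, while 11.9% of the 832 genes had no overlap. VEGFA's log2 fold change was -0.17, 95% interval -0.47 to 0.12 (limma, adjusted p = 0.682). ANGPTL4 was at -0.076, from -0.29 to 0.14 (limma, adjusted p = 0.795), and BTC at -0.016, from -0.28 to 0.25 (limma, adjusted p = 0.967). ANGPTL4 was at 0.068 with upper quartile and 0.041 with median of ratios scaling, and BTC changed sign under all 3 scalings. VEGFA differed by 0.074 where agonist replicate 3 shared a flow cell with blank replicates 2 and 3, and by -0.42 where agonist replicate 2 shared one with blank replicate 1. The 3 comparisons share libraries, so their values are not independent.

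Over the 3 groups at once, the moderated F-test gave VEGFA an F of 12.6 (limma, adjusted p = 0.0262), ANGPTL4 9.20 (limma, adjusted p = 0.0406) and BTC 1.88 (limma, adjusted p = 0.309). In this test 130 of the 832 genes passed, or 15.6%. With 1 library left out VEGFA passed in 4 of 9 fits and ANGPTL4 in 2 of 9, with adjusted p in limma of up to 0.115 and 0.160. VEGFA did not pass without agonist replicate 1, without any single antagonist library or without blank replicate 2, and ANGPTL4 passed only without agonist replicate 2 or blank replicate 1.

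**Figure D3:**
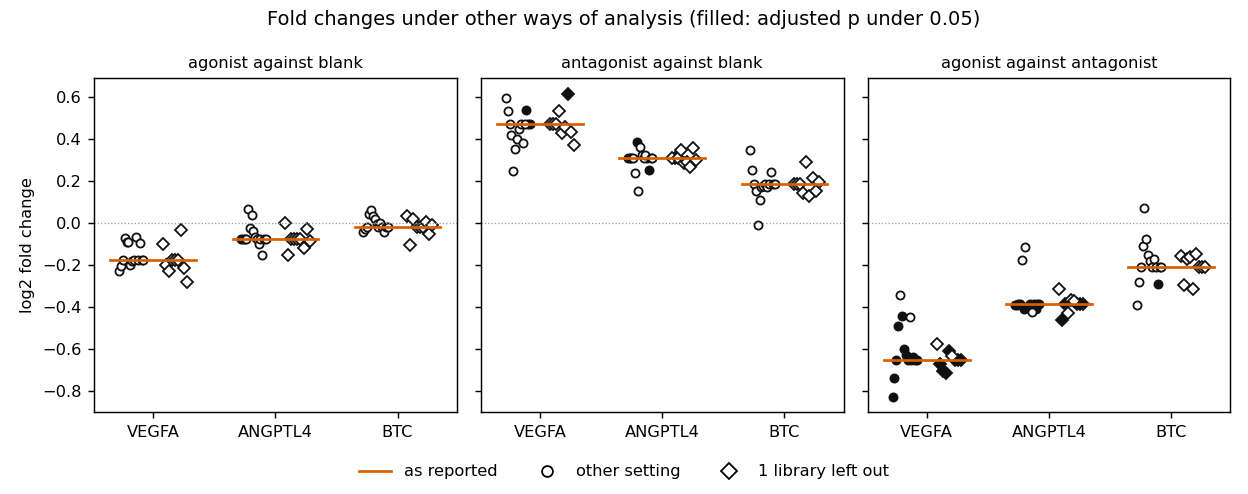
Log2 fold changes of the 3 genes (vertical axis) as reported (orange line), in the other settings (circles) and with 1 library left out (diamonds); filled symbols have an adjusted p under 0.05. The agonist against antagonist values of VEGFA run from -0.83 to -0.34 and those of ANGPTL4 from -0.46 to -0.11, all below 0, while the agonist against blank values of ANGPTL4 and BTC lie on both sides of 0.

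Ratios between 2 of the genes within a library depend on the scaling of libraries only through the pseudocount, and they ask whether the genes moved by unequal amounts. The log2 ratio of VEGFA to ANGPTL4, on TPM + 1, was -5.68, -5.78 and -5.57 in the agonist libraries, -5.45, -5.37 and -5.41 in the antagonist libraries and -5.21, -5.76 and -5.77 in the blank libraries. The agonist libraries lay below all antagonist libraries, and blank replicate 1 had the highest ratio of all 9. The agonist mean was 0.26 below the antagonist mean, with an exact permutation p of 0.1, two-sided, the smallest that 3 against 3 libraries can give (adjusted p = 0.45 over the 9 ratio tests). Over smaller pseudocounts and a replicate block this difference ran from -0.44 to -0.26. For VEGFA over BTC the agonist mean was 0.93 ± 0.16 and the antagonist mean 1.38 ± 0.26, a difference of -0.44 with the same exact permutation p of 0.1 and no overlap (adjusted p = 0.45). For VEGFA over BTC, this p and the lack of overlap held only with the pseudocount of 1: the exact permutation p was 0.2 with a pseudocount of 0.5 and 0.3 with 0.1. On plain TPM the groups overlapped, agonist replicate 3, at 3.83, lying above antagonist replicate 3, at 3.62. For ANGPTL4 over BTC the groups overlapped (6.61 ± 0.064 with the agonist and 6.79 ± 0.23 with the antagonist, SD, n = 3 each; exact permutation p = 0.2), and with a pseudocount of 0.1 in place of 1 the difference of -0.18 became 0.00052. Against blank all groups overlapped, with exact permutation p of 0.3 to 0.8. No ratio test could pass a threshold of 0.05 in this design.

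**Figure D4:**
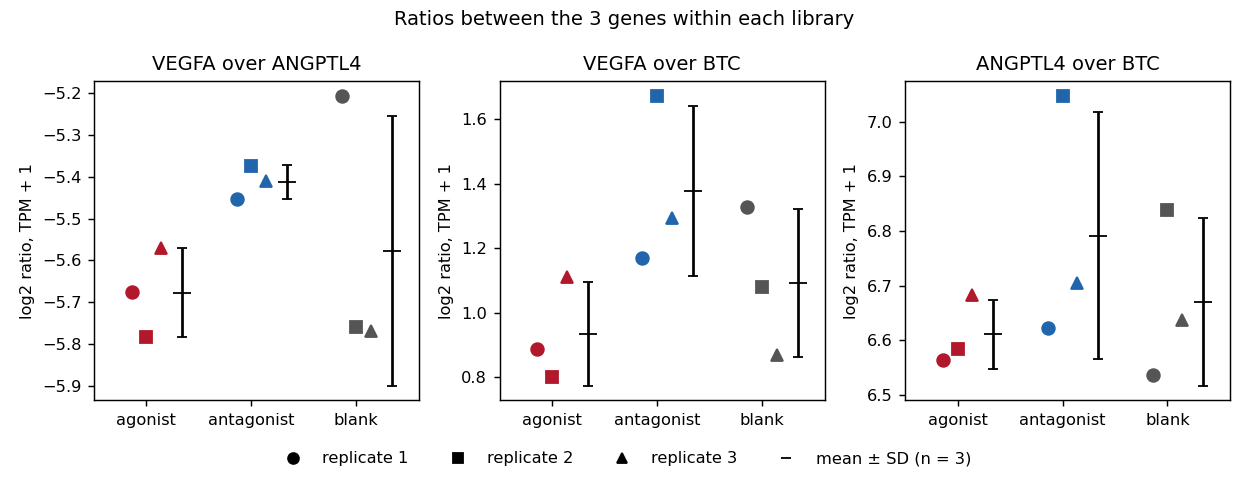
Log2 ratio on TPM + 1 (vertical axes, not from 0) of VEGFA to ANGPTL4, VEGFA to BTC and ANGPTL4 to BTC in each library, by group; shapes are replicate numbers and bars the mean ± SD (n = 3). For VEGFA to ANGPTL4 the antagonist libraries sit between -5.45 and -5.37, above the agonist libraries, and blank replicate 1 sits above both at -5.21.

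The genes whose pattern over the 9 libraries was most like VEGFA's, by Pearson's r of log2(TPM + 1), were the adhesion receptor gene ADGRG1 (r = 0.989), NOL9 (0.985), SAP30BP (0.981), WDSUB1 (0.979) and GYG1, a primer of glycogen synthesis (0.978). They shared its high value in blank replicate 1: ADGRG1 had 3.18 TPM there, against 2.32 and 1.95 TPM in blank replicates 2 and 3, and NOL9 3.97, against 2.75 and 2.27 TPM. With the group means removed r was 0.901 to 0.969 for these 5 genes, which were picked for their r in the same libraries. Over other pseudocounts and scalings r was 0.949 to 0.988. For ANGPTL4 the closest were DCTN1, a dynactin subunit (0.945), the mitochondrial thiolase ACAT1 (0.945), HYI (0.943), DRG1 (0.940) and DHRS7 (0.940), and over other pseudocounts and scalings r for these 5 genes was 0.742 to 0.946. ACAT1 had 7.34 TPM in blank replicate 1, its highest blank library, against 7.15 and 7.10 TPM in the other blank libraries. In the other 4 genes blank replicate 1 was the lowest blank library, as with 24.8 TPM for HYI, against 27.5 and 26.7 TPM. With the group means removed r to ANGPTL4 was 0.704 to 0.878 for its 5 genes. For BTC the closest were the purine salvage enzyme HPRT1 (0.932), ZMYND19 (0.927), ATP6AP2 (0.926), HACD4 (0.924) and the growth arrest gene GAS1 (0.923). Among these r was as low as 0.283 after median of ratios scaling (ZMYND19), and it was 0.871 to 0.932 with the group means removed. Each list was picked as the highest r among 831 other genes, so a gene outside it had a lower r by construction. Between the 3 genes r was 0.804 for VEGFA and ANGPTL4, 0.562 for VEGFA and BTC and 0.622 for ANGPTL4 and BTC. With the group means removed these were 0.125, 0.0452 and 0.196. Ranked by r before that removal, ANGPTL4 was in place 234 and BTC in place 451 for VEGFA. For ANGPTL4, VEGFA was in place 73 and BTC in place 300. For BTC, ANGPTL4 was in place 319 and VEGFA in place 384. All these r describe 9 libraries that share 3 treatments, flow cells and scaling, and they carry no test.

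Of the other genes of these pathways, few could be read. Of 6 VEGF ligand names, VEGFC, the ligand of lymphatic vessel growth, was the only other one in the table. It was under 1 TPM in all libraries and so was not tested: 0.433 to 0.475 TPM with the agonist, 0.467 to 0.540 TPM with the antagonist and 0.349 to 0.531 TPM in blank cells, with agonist and antagonist groups that overlapped. The listed VEGF receptors and angiopoietin receptors had no row under the names searched, nor had the other listed angiopoietins and angiopoietin-like genes.

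For ANGPTL4, the enzyme it inhibits could be set beside it. LPL, lipoprotein lipase, had 0.556, 0.775 and 0.834 TPM in the agonist libraries, 1.24, 0.787 and 1.29 TPM in the antagonist libraries and 1.03, 0.483 and 0.646 TPM in the blank libraries. The groups overlapped, and LPL did not pass for agonist against antagonist (log2 fold change -0.29; limma, adjusted p = 0.145) or for antagonist against blank (0.30; limma, adjusted p = 0.191); agonist against blank was 0.010. With library weights LPL passed in both (-0.35 and 0.43; limma, adjusted p = 0.0457 and 0.0119), and without blank replicate 1 it passed for antagonist against blank (0.42; limma, adjusted p = 0.0443). Its agonist against antagonist value ranged from -0.54 with a pseudocount of 0.1 to -0.018 with quantile normalization. It was the only gene tested of the 11 listed for lipoprotein lipase and fatty acid uptake. The 13 genes of the PPAR list, which holds factors known to induce ANGPTL4, had no row under the names searched.

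Around BTC, the EGF family list of 11 ligands held 1 other gene in the table, EPGN (epigen), another EGF receptor ligand. It had 0.473 to 0.697 TPM with the agonist, 0.547 to 1.44 TPM with the antagonist and 0.276 to 0.860 TPM in blank cells, reached 1 TPM in 1 library and was not tested. ADAM17, a metalloprotease that sheds EGF family ligands, was below 1 TPM throughout and not tested. It had 0.284, 0.227 and 0.448 TPM in the agonist libraries, 0.561, 0.603 and 0.608 TPM in the antagonist libraries and 0.413, 0.343 and 0.250 TPM in the blank libraries. Its antagonist libraries lay above the other 6. Of the 832 tested genes 44.8% had agonist libraries wholly below antagonist ones, and 26.2% had antagonist libraries wholly above blank ones. The share with both was not computed.

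ERRFI1, an intracellular feedback inhibitor of the EGF receptor, was the 1 tested gene of 12 for ligand shedding and receptor feedback. It had 8.42, 10.1 and 9.94 TPM in the agonist libraries, 17.4, 12.7 and 18.7 TPM in the antagonist libraries and 12.0, 12.1 and 14.2 TPM in the blank libraries. The agonist libraries lay below all others, and antagonist replicate 2 lay among the blank values. Of all 832 genes 44.8% had agonist libraries wholly below antagonist ones. Agonist and blank libraries did not overlap, in either direction, for 11.9%. ERRFI1 was 0.70 lower on the log2 scale for agonist against antagonist (limma, adjusted p = 0.0117). It did not pass for antagonist against blank (0.31; limma, adjusted p = 0.164) or agonist against blank (-0.39; limma, adjusted p = 0.303). With library weights it passed for antagonist against blank (0.34; limma, adjusted p = 0.0440). The agonist against antagonist call was lost with quantile normalization (-0.52), with median of ratios scaling (-0.45; limma, adjusted p = 0.0514), with fragment worth as a covariate (-0.72) and without agonist replicate 1 (-0.63) or antagonist replicate 3 (-0.60). The listed EGF receptors had no row under the names searched. Of 5 ovulatory targets of the EGF receptor, TNFAIP6 alone had a row, at 0 to 0.211 TPM.

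Among 26 other follicle growth factors 3 were tested. For agonist against antagonist 2 of them were lower, PDGFA and FST, beside 23.9% of all genes; for antagonist against blank 1 was higher, PDGFA, beside 10.2%; none passed for agonist against blank. PDGFA, a platelet-derived growth factor chain, had 7.70, 9.09 and 8.70 TPM in the agonist libraries, 12.6, 11.8 and 14.6 TPM in the antagonist libraries and 10.3, 8.87 and 8.09 TPM in the blank libraries. Its antagonist libraries lay above the other 6, with blank replicate 1 the highest blank, as for VEGFA. Antagonist libraries lay wholly above agonist ones for 44.8% of all genes and wholly above blank ones for 26.2%. PDGFA was 0.56 lower on the log2 scale for agonist against antagonist (limma, adjusted p = 0.0117). It was 0.47 higher for antagonist against blank (limma, adjusted p = 0.0380), while agonist against blank was at -0.082. The first PDGFA call was lost with fragment worth as a covariate (-0.40) and without agonist replicate 1 (-0.50) or antagonist replicate 3 (-0.48). The second was lost without the filter (limma, adjusted p = 0.0676), with a replicate block (limma, adjusted p = 0.0703), with a flow cell term (0.45) and without antagonist replicates 1 (0.49), 2 (0.53) or 3 (0.40) or blank replicates 2 (0.46) or 3 (0.40). FST, which encodes the activin-binding follistatin, had 39.8, 47.8 and 42.2 TPM in the agonist libraries, 53.4, 52.1 and 51.7 TPM in the antagonist libraries and 53.7, 48.0 and 48.1 TPM in the blank libraries. The agonist libraries lay below the other 6, beside 44.8% of all genes with agonist libraries wholly below antagonist ones. For 11.9% of all genes agonist and blank libraries did not overlap, in either direction. FST was 0.27 lower for agonist against antagonist (limma, adjusted p = 0.0467), a call kept in 4 of 15 alternatives and 2 of 9 fits that left out 1 library, and was at -0.0038 with median of ratios scaling. BMP4, a bone morphogenetic protein ligand, did not pass in any comparison. The median log2 fold change of these 3 genes was -0.27 for agonist against antagonist and 0.069 for antagonist against blank, beside -0.21 and 0.12 for all genes.

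EGR1, an immediate early transcription factor downstream of receptor signalling, moved in the same direction as VEGFA: 79.1, 95.3 and 77.9 TPM in the agonist libraries, 142, 140 and 137 TPM in the antagonist libraries and 100.5, 92.5 and 88.9 TPM in the blank libraries. It passed for agonist against antagonist (log2 fold change -0.73; limma, adjusted p = 0.00363) in all 15 alternatives and all 9 fits that left out 1 library. It also passed for antagonist against blank (0.57; limma, adjusted p = 0.0202), a call lost with a flow cell term (0.48) and without antagonist replicate 1, 2 or 3 or blank replicate 2 or 3 (limma, adjusted p = 0.0513 to 0.120). For antagonist against blank 10.2% of all genes were called higher. As for EGR1, antagonist libraries lay wholly above agonist ones for 44.8% of all genes and wholly above blank ones for 26.2%. EGR1 was the only 1 tested of 14 genes of GnRH receptor signalling. It was also the only 1 called of 4 tested immediate early genes. The median log2 fold change of those 4 genes was -0.059 for agonist against antagonist, beside -0.21 for all genes. In that comparison 25.6% of all genes were called, so 1 of 4 was near the background. The listed genes of hypoxia sensing and hypoxia targets, which are known to accompany VEGFA and ANGPTL4 in low oxygen, had no row under the names searched.

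**Figure D5:**
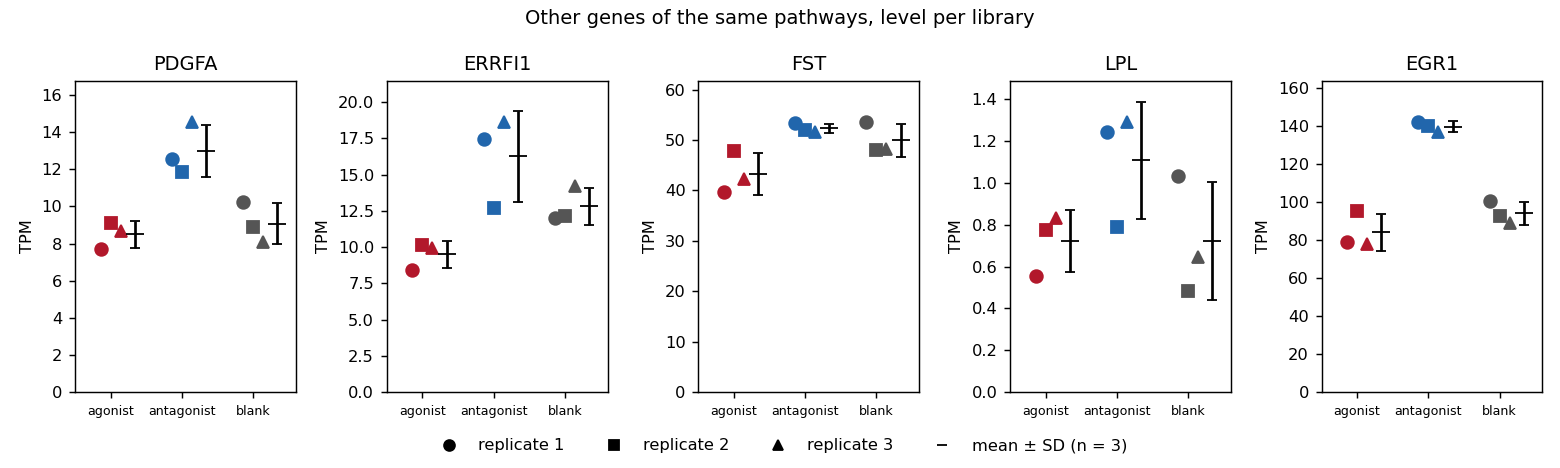
TPM (vertical axis, from 0) of PDGFA, ERRFI1, FST, LPL and EGR1 in each library, by group; shapes are replicate numbers and bars the mean ± SD (n = 3). The antagonist libraries lie above the other 6 for PDGFA (11.8 to 14.6 TPM) and EGR1 (137 to 142 TPM). For ERRFI1 and FST they lie above the agonist libraries and overlap the blank ones, and for LPL they overlap both.

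In bulk RNA fewer cells of a type and less RNA per cell cannot be told apart. The cell type label could barely be checked: of 14 granulosa markers HSD17B1 alone had a row, at 0.140 to 0.936 TPM with the agonist, 0 to 0.428 TPM with the antagonist and 0.149 to 1.09 TPM in blank cells, and it was listed at 0 in antagonist replicate 3. Of 9 endothelial markers CDH5 alone had a row, at 0.0212 to 0.121, 0 to 0.0897 and 0.0217 to 0.0396 TPM in agonist, antagonist and blank libraries, with antagonist replicate 2 at 0. CD93, an endothelial gene outside the list that was chosen after its values were seen, had 0.0983 to 0.807, 0.396 to 0.760 and 0.841 to 1.05 TPM in the same order, lowest in an agonist library and highest in blank cells. The means of CDH5, the listed marker, went the other way: 0.0611, 0.0532 and 0.0284 TPM in that order, lowest in blank cells. Its libraries overlapped in every pair of groups, so at these low values its means give no firm direction. Neither gene passed the filter, so neither was tested. Of 7 leukocyte markers CD4 alone had a row and was listed at 0 in 6 of 9 libraries, with at most 0.103 TPM. The listed theca, erythroid, fibroblast, germ cell and epithelial markers had no row under the names searched. The part of these cells in the values above was not tested.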

How the data were processed

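The table that the authors deposited gives TPM for 1371 gene names in 9 libraries, and every column was used. Tools appear without roles in the submitters' processing notes: StringTie 1.2.2, Cuffdiff, Cufflinks 2.2.1, TopHat2 2.1.0 and CASAVA 1.8.2. Build, annotation and strand setting are not stated there or in the labels. Of the gene names 1253 matched RefSeq symbols.

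Genes had to reach 1 TPM in 3 or more libraries, which 832 did. Their log2(TPM + 1) went into limma 3.58.1 (R 4.3.3) with 3 groups and a variance trend, and p was adjusted by Benjamini-Hochberg over the 832 genes of each comparison, with a threshold of 0.05. Fragment worth was the most frequent ratio to blank replicate 3 among 366 genes below 0.5 TPM, where both libraries were above 0. Ratios far from 1 were dropped, which left 79 to 109 for each other library. The fullest window of 0.03 log2 units, whose median was taken, held 15 to 27 of them, so each worth rests on few genes. Ratios within libraries had exact permutation tests. The limma fit was tested on simulated data with independent noise for each gene, and fragment worth on simulated fragments with known factors. The limma simulation held no shift shared by the genes of a library, so it cannot show how such shifts affect the calls. TPM keeps no depth, so the precision that read numbers give is unknown.

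The members and lists were chosen with earlier results of these data known. Named were the 3 genes, other members of their families, EGR1, the 5 genes with the highest r to each, and up to 4 called genes of each of 23 lists, or else the 2 most abundant tested. Of these lists 11 had no gene in the table and 8 had a tested gene. Alternatives for the named list genes and for r were added after the data were seen.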

Additional observations from a re-analysis of the deposited data

How the results depend on the processing

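The numbers of called genes moved most. For agonist against blank, 12 genes in place of 0 passed with library weights, and 0 to 67 without 1 library (67 without agonist replicate 2). For antagonist against blank, the 92 became 42 and 61 with pseudocounts of 0.1 and 0.5, 14 without a filter, 26 with a mean of at least 5 TPM, 41 with quantile normalization, 0 with the flow cell as a term (199 in place of 252 at an unadjusted p under 0.05), 41 with it as a random block, 27 with the replicate number as a block, 50 with fragment worth as a term, 348 with library weights and 2 to 212 without 1 library: 212 without blank replicate 1, 50 and 57 without agonist replicates 1 and 3, 8 without antagonist replicate 2 and 2 without antagonist replicates 1 or 3 or blank replicates 2 or 3. For agonist against antagonist, the 213 became 86 with a mean of at least 5 TPM, 101, 52 and 108 under the 3 scalings (upper quartile, then quantile, then median of ratios), 132 with the flow cell as a term, 5 with fragment worth, 369 with library weights and 15 to 295 without 1 library: 15 and 121 without agonist replicates 1 and 3, and 57, 140 and 17 without antagonist replicates 1, 2 and 3. The following are log2 fold changes unless named otherwise. VEGFA in agonist against antagonist no longer passed with quantile normalization (-0.34) or fragment worth (-0.45) and lay between -0.71 and -0.58 without 1 library. VEGFA in antagonist against blank no longer passed with pseudocounts of 0.1 and 0.5 (0.60 and 0.54), without a filter (0.48), under the 3 scalings (0.42, 0.25 and 0.35), with the flow cell as a term or random block (0.40 and 0.45), with the replicate block (0.48), with fragment worth (0.38) and with the uncompared group left out of the model (0.48), and lay between 0.37 and 0.62 without 1 library. ANGPTL4 in agonist against antagonist no longer passed with the upper quartile and the median of ratios scaling (-0.17 and -0.11) and with fragment worth (-0.42), and lay between -0.46 and -0.31 without 1 library; in antagonist against blank it passed with quantile normalization (0.39), with the uncompared group left out of the model (0.31) and with library weights (0.25), and lay between 0.27 and 0.36 without 1 library. In agonist against blank ANGPTL4 was above 0 with the upper quartile and the median of ratios scaling (0.068 and 0.041). BTC in agonist against blank was above 0 under the 3 scalings (0.045, 0.065 and 0.034), with the flow cell as a term (0.023) and with fragment worth (0.0031), and lay between -0.10 and 0.036 without 1 library; in antagonist against blank it was at -0.0065 and in agonist against antagonist at 0.071 with quantile normalization, and in agonist against antagonist it passed with library weights (-0.29). The F of VEGFA no longer passed without a filter (11.6), under the 3 scalings (9.99, 6.68 and 9.25), with the flow cell as a term (8.51), the replicate block (10.04) or fragment worth (8.18), and was 7.79 to 26.8 without 1 library, where 5 of 9 fits did not pass. The F of ANGPTL4 no longer passed without a filter (11.2), with a mean of at least 5 TPM (8.82), with the upper quartile and the median of ratios scaling (3.68 and 1.08), with the flow cell as a term (8.49) or fragment worth (7.19), and was 5.49 to 15.7 without 1 library, where 7 of 9 did not pass. Among ratios, ANGPTL4 over BTC changed sign with a pseudocount of 0.1 for antagonist against blank (-0.035) and agonist against antagonist (0.00052), and without 1 library it lay between -0.0072 and 0.21 for antagonist against blank and between -0.13 and 0.024 for agonist against blank; VEGFA over ANGPTL4 for agonist against blank lay between -0.19 and 0.086 without 1 library. For genes added after the data were seen, EGR1 in agonist against blank was at 0.040 with quantile normalization, FST in antagonist against blank at -0.086 with median of ratios scaling, PDGFA in agonist against blank at 0.048, 0.013 and 0.024 under the 3 scalings, 0.0047 with fragment worth and -0.15 to 0.0011 without 1 library, and LPL in agonist against blank at -0.091 to 0.14 without 1 library. The replicate number was shared by the groups, and whether it pairs the libraries cannot be told from so few libraries on mixed flow cells. Deviations of same-numbered libraries correlated at -0.117 to 0.216 over the 832 genes. Those of differently numbered libraries from different groups correlated at -0.255 to 0.190. The replicate block changed no other call of the 3 genes. VEGFA and BTC have no value with a mean of at least 5 TPM, which both fall below. The causes of these changes were not tested. The unknown number of reads limits BTC most, whose values lie near 1 TPM.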
